A study of Mus musculus with 6 samples.

Results

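The epidermal growth factor (EGF) family of ligands and the ErbB family of receptors were followed in the anterior prostate (AP), in OEx mice and in their controls (Ctrl). The members were the rows of the expression tables whose gene symbol was Egf, Tgfa, Areg, Ereg, Btc or Hbegf, which encode 6 ligands, or Egfr, Erbb2, Erbb3 or Erbb4, which encode the 4 receptors. All 10 were found, among 55076 rows. Total RNA of AP from 6 male mice at 20 weeks of age was sequenced, with 3 mice in each group by the labels. OEx mice carried Pbsn-Cre and 1 Rosa26 N1ICD allele, so that the Notch1 intracellular domain (N1ICD) was expressed in prostatic epithelium, where the probasin promoter drives Cre. Ctrl mice carried the same Rosa26 N1ICD allele without Cre according to the study's methods, although their labels read wild type. The libraries were made from the whole gland, so stroma, vessels and blood cells were included. The study's methods describe cleaning off secretions under RNA isolation and qPCR, and do not repeat this step for RNA-Seq.

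EGF family ligands are made as membrane-anchored precursors and are released by sheddases, proteases of the ADAM family. A ligand brings together a pair of receptors, whose kinases then phosphorylate their tails and engage the Ras-MAPK cascade and other pathways. Egf, Tgfa and Areg bind Egfr, whereas Btc, Hbegf and Ereg can also bind Erbb4. Erbb2 has no known ligand and serves as a partner of the other receptors, and Erbb3 has a weak kinase and relies on its partners. In the prostate, EGF is secreted into the gland's fluid, and Egfr is known as a receptor of basal epithelial cells.

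Ligand transcripts were dominated by Egf in Ctrl mice and no longer in OEx mice. Egf was 9.07-fold lower in OEx mice by mean level, Egfr was 3.56-fold higher, and Erbb4 was 22.2-fold higher from a level near the floor. Tgfa was 1.99-fold higher, and Erbb2 1.46-fold higher. Levels are given in FPKM, fragments per kilobase and per a denominator set for each library, which allows genes to be compared per length. This denominator differed from the total of reads recovered on annotated genes. Divided by that total, it was 1.34, 1.35 and 1.22 for the OEx libraries, by replicate, whereas the Ctrl libraries had 0.726, 0.730 and 0.815. The folds above carry this scaling. Scaling by library totals changed the log2 fold change of Egf from -3.08 to -2.35, and that of Egfr from 1.45 to 2.05. Of the 10 members, 6 had a mean over the mice of at least 1 FPKM and entered the test across genes, a limma fit on log2(FPKM + 1) adjusted over 12833 rows. A gene was called with an FDR under 0.05 and a log2 fold change beyond 1 in either direction. By this rule 1 member, Egfr, was called higher, where 12.9% of all tested rows were, and 1 member, Egf, was called lower, where 15.7% of all tested rows were. By FDR alone, Egfr, Tgfa and Erbb2 were higher and Egf was lower, against 30.7% of all tested rows higher and 36.5% lower. Changes of this kind were therefore common in these libraries, and the counts do not set the family apart. Areg, Ereg, Btc and Erbb4 lay under the mean of 1 FPKM and are described with their reads.

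The promoter sequences of Egf, Egfr and Erbb4 are shown because these members differed most between groups, and that of Areg because it held the only match to the motif searched. N1ICD acts on promoters through the DNA-binding protein RBPJ, whose core motif was searched as TGGGAA on both strands (TTCCCA on the other). RefSeq promoters of build GRCm38.p6, from 250 bases before to 50 bases after a start, were at hand for 7 of the members, Egf with 2 starts. The sequences below are the 250 bases upstream, 5′ to 3′ on the strand of the gene, with capitals marking the RBPJ core and the GC box (GGGCGG or CCGCCC, added after the values were seen), 2 motifs whose matches do not overlap here.
Egf, chr3:129755323-129755572, minus strand: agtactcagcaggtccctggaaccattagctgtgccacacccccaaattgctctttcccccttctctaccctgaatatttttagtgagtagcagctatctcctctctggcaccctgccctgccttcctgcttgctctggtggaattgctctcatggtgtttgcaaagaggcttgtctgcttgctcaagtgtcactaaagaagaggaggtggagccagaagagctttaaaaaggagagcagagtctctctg
Egfr, chr11:16751953-16752202, plus strand: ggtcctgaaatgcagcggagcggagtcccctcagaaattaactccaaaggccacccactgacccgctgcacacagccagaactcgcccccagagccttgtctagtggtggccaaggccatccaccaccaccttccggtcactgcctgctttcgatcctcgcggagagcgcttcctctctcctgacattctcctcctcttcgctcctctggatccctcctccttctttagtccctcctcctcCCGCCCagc
Erbb4, chr1:69108060-69108309, minus strand: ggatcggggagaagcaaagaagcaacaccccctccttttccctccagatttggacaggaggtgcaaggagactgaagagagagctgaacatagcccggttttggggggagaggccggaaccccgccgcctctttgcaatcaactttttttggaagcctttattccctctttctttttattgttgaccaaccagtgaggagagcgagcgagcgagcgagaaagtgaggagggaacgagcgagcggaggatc
Areg, chr5:91139349-91139598, plus strand: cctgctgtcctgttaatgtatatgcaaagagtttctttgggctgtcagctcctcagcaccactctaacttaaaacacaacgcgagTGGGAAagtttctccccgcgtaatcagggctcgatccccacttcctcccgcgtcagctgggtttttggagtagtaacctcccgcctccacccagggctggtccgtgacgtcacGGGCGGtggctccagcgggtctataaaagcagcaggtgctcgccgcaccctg
The RBPJ core was in 1 of the 8 member promoters, that of Areg, where its first base lay at -165 from the start, and in 25.6% of 32851 promoters of the same length. The GC box was in the promoters of Areg, Egfr and Tgfa and in 35.7% of all. The GC content of the upstream window was 50.4% for Egf, 54% for Erbb4 and 60.8% for Egfr, against a median of 52.4% over all promoters. A match is a run of letters and not a site, and a window without one says nothing of RBPJ at the gene.

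The libraries held 14762182 to 18650962 recovered reads on annotated genes, at which 3 reads, the limit used for a count of 0, equal a CPM of 0.161 to 0.203. This limit covers counting error only. Notch1, which counts reads of the transgene and of the endogenous gene together, lay at 41.9 to 78.9 FPKM in OEx mice and 3.34 to 5.55 FPKM in Ctrl mice. The prostate epithelial gene Hoxb13 was present in every library, at 93.1 to 269.8 FPKM. Replicates 1 and 2 were close in both groups, with a mean chi-square per gene of 3.68 for the OEx pair and 2.93 for the Ctrl pair where counting noise gives 1, against 51.3 to 94.7 for pairs with replicate 3. They were kept as separate mice because the labels list them so. Whether they are repeat libraries of 1 mouse was not tested, and if they were, each SD, SE and p below would rest on 2 mice a group and could be too small. With replicates 1 and 2 averaged, Egf and Egfr were still called. Genes of the seminal vesicle, 8 in number, held 1.31% of the reads of Ctrl replicate 3 and no more than 3.25e-04% elsewhere. As deposited, the values gave a median log2 fold change of -0.078 over all tested rows. Scaled by library totals instead the median was 0.59, so a member's direction was read relative to the median as well.

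Egf, the ligand that gives the family its name, lies on the minus strand of chromosome 3 from 129677565 to 129755316 (GRCm38) and overlaps 4 annotated genes, 3 of them on the other strand. OEx replicates 1 to 3 stood at 5.01, 4.95 and 12.03 FPKM, against 77.8, 76.6 and 45.1 FPKM in Ctrl replicates 1 to 3. These levels rested on 1128 to 2449 reads per OEx mouse and 7728 to 11178 reads per Ctrl mouse. The groups did not overlap, and replicate 3 was the mouse nearest to the other group on both sides. The log2 fold change was -3.08 (SE 0.36, limma FDR 3.99e-04), and relative to the median of all tested rows it was -3.001. Without Ctrl replicate 3, the mouse with seminal vesicle reads, the log2 fold change was -3.33 (limma FDR 7.92e-04). In bulk tissue, fewer cells of a type and less RNA per cell cannot be told apart, here and for every member below. Beside the fall of Egf, the luminal markers Pbsn, Krt18 and Hoxb13 were called lower, of 10 tested. Their summed level was 3980 to 7199 FPKM in OEx mice and 17546 to 21229 FPKM in Ctrl mice, most of it Pbsn, and its part in the result was not tested.

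Tgfa, the second ligand that binds Egfr alone, moved in the other direction. It lies on the plus strand of chromosome 6 from 86195223 to 86275719. OEx replicates 1 to 3 stood at 6.496, 6.75 and 7.42 FPKM, against 3.97, 3.56 and 2.87 FPKM in Ctrl replicates 1 to 3. Every OEx mouse lay above every Ctrl mouse, and the lowest OEx value was 1.64 times the highest Ctrl value. The log2 fold change was 0.83 (SE 0.12, limma FDR 9.87e-04), which passed the FDR and not the fold criterion, and it was 0.91 above the median of all tested rows. With library totals, with totals that leave out the 20 most abundant genes, with TPM and with limma-voom, it passed both.

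Hbegf, heparin-binding EGF, did not separate the groups. It lies on chromosome 18 from 36504927 to 36515805. The OEx levels, by replicate, were 3.23, 3.65 and 4.34 FPKM, and the Ctrl levels were 4.11, 3.78 and 6.24 FPKM. Ctrl replicate 3 was the highest of the 6, and the other 5 mice overlapped between groups. The log2 fold change was -0.25 (SE 0.18) and did not pass the test (limma FDR 0.26). With library totals, which raise all genes, it was 0.38. Without Ctrl replicate 3 it was -0.066 (limma FDR 0.658).

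Btc, betacellulin, was low and also overlapped. Reads numbered 47, 54 and 72 in the OEx mice and 9, 14 and 56 in the Ctrl mice. These correspond to 0.521, 0.522 and 0.882 FPKM and to 0.159, 0.239 and 0.815 FPKM. Ctrl replicate 3 lay among the OEx mice, and Ctrl replicates 1 and 2 lay under all of them. In a limma-voom fit to rows with at least 10 reads in 3 or more mice, the log2 fold change was 0.87 (FDR 0.207), and without Ctrl replicate 3 it was 1.60 (FDR 0.0279). With all mice kept, voom also called Btc under library totals (1.70, FDR 0.0318) and TPM (1.75, FDR 0.0172). These 2 fits called 6654 and 7281 of 15813 rows higher, and their medians over all rows were 0.84 and 0.96. Relative to the median Btc was at 0.87 and 0.79 there, against 0.82 in the voom fit with the deposited scaling. Whether Btc was called thus rested on that mouse and on the scaling.

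Areg and Ereg, amphiregulin and epiregulin, were at the limit of detection. Areg had 1, 6 and 1 reads in the OEx mice and 1, 0 and 0 in the Ctrl mice. Ereg had 14, 16 and 4 reads in the OEx mice and 7, 2 and 2 in the Ctrl mice. Both overlapped between groups, and a difference was not detectable at this depth. Summed levels of 9 immune markers were 205, 189 and 16.0 FPKM in OEx replicates 1 to 3, and Ereg was lowest in replicate 3. In Ctrl replicates 1 to 3 these sums were 30.6, 32.2 and 70.6 FPKM. There Ereg was highest in replicate 1, the opposite order. The part of these cells in the reads of Ereg was not tested.

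**Figure D1:**
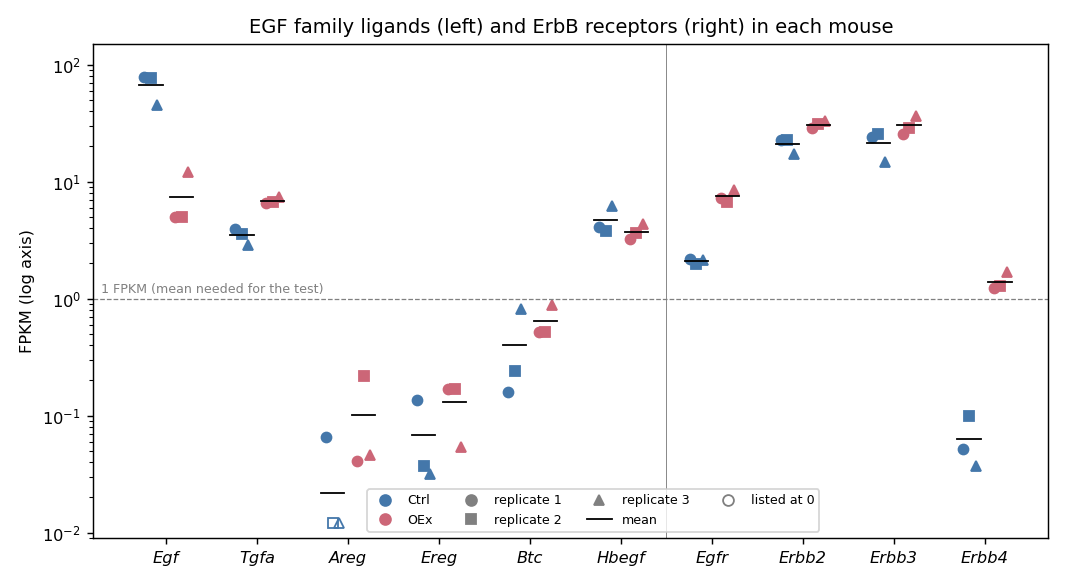
Level of each member in each mouse in FPKM on a log axis, with the 6 ligands on the left and the 4 receptors on the right. Points are mice, shapes are replicate numbers, horizontal bars are group means and open symbols mark values listed at 0. Egf separates downwards in OEx mice, and Tgfa and all 4 receptors lie higher in every OEx mouse, with Erbb3 almost level between the lowest OEx and the highest Ctrl mouse.

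Egfr, the receptor of all 6 ligands, lies on the plus strand of chromosome 11 from 16752203 to 16918158 and overlaps the antisense gene Egfros. The OEx levels, by replicate, were 7.21, 6.75 and 8.52 FPKM, and the Ctrl levels were 2.18, 1.98 and 2.15 FPKM. The reads behind them were 1630 to 1749 per OEx mouse and 290 to 370 per Ctrl mouse. The lowest OEx value was 3.10 times the highest Ctrl value, and neither replicate 3 stood apart. The log2 fold change was 1.45 (SE 0.11, limma FDR 7.30e-05), and 1.53 relative to the median of all tested rows. Basal epithelial markers moved the other way, with 7 of 9 called lower, among them Krt5 with a log2 fold change of -4.41 and Trp63 with -1.66. The summed level of the basal list was 21.8 to 29.6 FPKM in OEx mice and 235 to 276 FPKM in Ctrl mice. Egfr was therefore higher in the libraries with less basal marker RNA, and the part of other cell types in its level was not tested.

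Erbb2 and Erbb3, the partners without a ligand and with a weak kinase, were the most abundant receptors in both groups. Erbb2 lies on chromosome 11 from 98412470 to 98437716 and overlaps Mien1 on the other strand. Its OEx levels, by replicate, were 28.5, 30.9 and 32.7 FPKM, and its Ctrl levels 22.8, 22.8 and 17.4 FPKM. The groups did not overlap, with Ctrl replicate 3 lowest of all. The log2 fold change was 0.54 (SE 0.13, limma FDR 0.00889), which passed the FDR and not the fold criterion. Erbb3, on chromosome 10 from 128567523 to 128589652, had OEx levels of 25.4, 28.8 and 36.2 FPKM and Ctrl levels of 24.0, 25.4 and 14.7 FPKM. The lowest OEx mouse and the highest Ctrl mouse were almost level, and the log2 fold change of 0.50 (SE 0.23) did not pass the test (limma FDR 0.092). Without Ctrl replicate 3 it was 0.26 (limma FDR 0.177). With library totals the log2 fold changes were 1.29 for Erbb2 and 1.25 for Erbb3, and both were then called.

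Erbb4, the neuregulin receptor that also binds Btc, Hbegf and Ereg, was near the floor in Ctrl mice and at low levels in every OEx mouse. It lies on the minus strand of chromosome 1 from 68032186 to 69108059, and 8 annotated genes overlap it, all on the same strand. It had 304, 364 and 373 reads in the OEx mice and 8, 16 and 7 reads in the Ctrl mice. These correspond to 1.23, 1.29 and 1.67 FPKM and to Ctrl levels between 0.0373 and 0.10003 FPKM. The lowest OEx value was 12.3 times the highest Ctrl value. In the limma-voom fit, which was added after the values were seen and calls 22.4% of rows higher and 17.4% lower, the log2 fold change was 4.52 (SE 0.45, FDR 1.25e-04). With limma on log2(FPKM + 1) and no filter, where 6.27% of rows are called higher and 7.12% lower, it was 1.17 (FDR 5.86e-04), the smaller value because 1 FPKM is added to levels under 1. Erbb4 was called in every fit that held it, with voom values from 4.19 to 4.89 when single mice were left out. It met the read filter of the voom fits through the OEx mice, so its repeated voom calls add no separate support.

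Groups did not overlap for 6 of the 10 members, of which 5 were higher in OEx mice and 1 was lower. Among all rows above 0 in any mouse, 27.2% were higher without overlap and 21.0% lower, and among the rows tested with limma 33.4% and 38.9%, 72.4% in all. An exact two-sided permutation test of 3 against 3 mice, which cannot go under 0.1, gave p = 0.1 for each of these 6 members.

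The order of levels differed between the groups at its top. In Ctrl mice Egf lay above all other members, followed by Erbb3 and Erbb2, whose ranges overlapped, then by Hbegf and Tgfa, which overlapped too, and by Egfr. In OEx mice Erbb2 and Erbb3 came first with overlapping ranges. Egfr, Egf and Tgfa followed as neighbours whose ranges overlapped, and then Hbegf, Erbb4 and Btc, each separate from the next. Areg and Ereg closed the order in both groups, joined by Erbb4 in Ctrl mice.

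**Figure D2:**
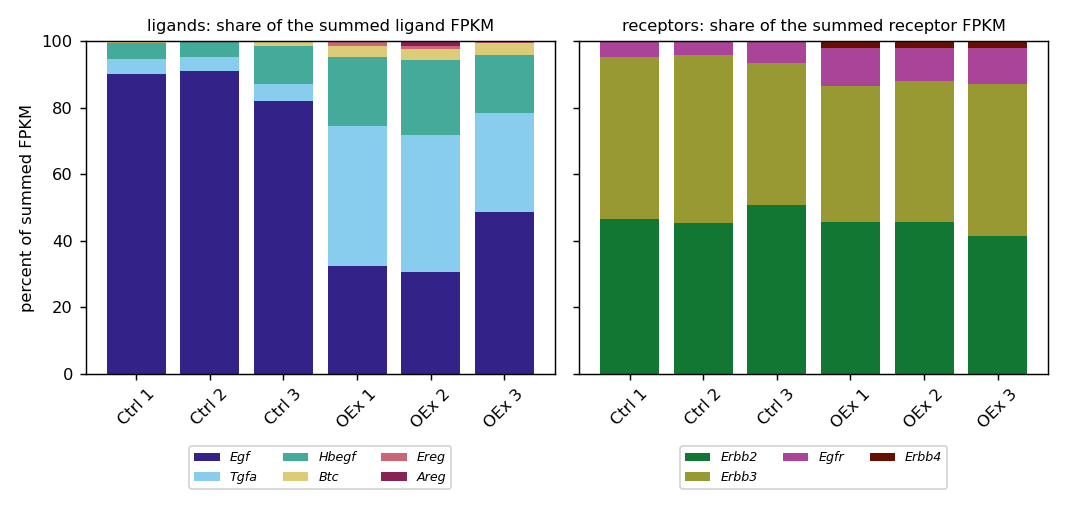
Each bar is a mouse, divided by the percent that each ligand (left) or receptor (right) takes of the summed FPKM of its class. Egf takes 81.9% to 91.0% of ligand FPKM in Ctrl bars and 30.4% to 48.6% in OEx bars, whereas Erbb2 and Erbb3 together make most of the receptor bars in both.

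Shares within a library do not depend on the scaling between mice. Egf made 32.4%, 30.4% and 48.6% of summed ligand FPKM in the OEx mice and 90.2%, 91.0% and 81.9% in the Ctrl mice. The share of Tgfa was 29.9% to 42.0% in OEx mice and 4.23% to 5.21% in Ctrl mice, and that of Hbegf 17.5% to 22.4% and 4.48% to 11.3%. No share of these ligands overlapped between groups, although the level of Hbegf did, because a share also moves with the level of Egf in the total. The ratio of Egf to Tgfa was 0.733 to 1.62 in OEx mice and 15.7 to 21.5 in Ctrl mice. The summed level of all 6 ligands was 75.2 ± 17.4 FPKM in the Ctrl group and 18.8 ± 5.16 FPKM in the OEx group (SD, n = 3). Without Egf, the remaining 5 summed to 11.5 ± 1.15 FPKM in OEx mice and 8.67 ± 1.19 FPKM in Ctrl mice (SD, n = 3), so the lower total came from Egf.

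The receptor mixture changed at its minor members. Egfr took 9.96% to 11.6% of summed receptor FPKM in OEx mice and 3.93% to 6.28% in Ctrl mice. Erbb4 took 1.90% to 2.11% in OEx mice and 0.106% to 0.199% in Ctrl mice. Erbb2 took 41.3% to 45.7% and 45.4% to 50.7%, and Erbb3 40.7% to 45.8% and 42.9% to 50.4%, with overlapping groups. The ratio of Erbb3 to Erbb2 overlapped as well, at 0.890 to 1.11 in OEx mice and 0.845 to 1.11 in Ctrl mice. The ratio of Egfr to Erbb2 did not, at 0.218 to 0.260 and 0.0866 to 0.124. The summed receptor level was 69.8 ± 8.59 FPKM in OEx mice and 44.5 ± 8.92 FPKM in Ctrl mice (SD, n = 3).

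**Figure D3:**
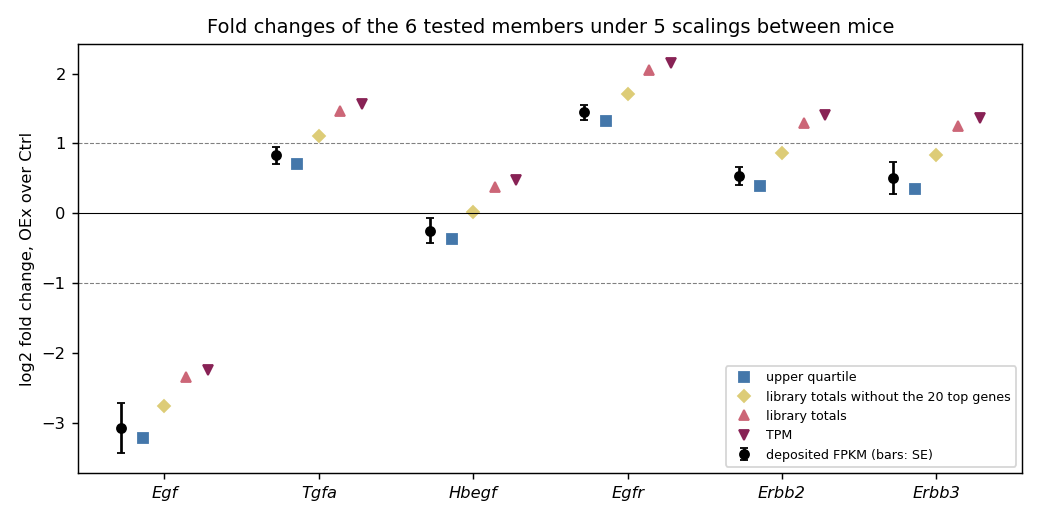
Log2 fold change (OEx over Ctrl) of the 6 tested members under 5 ways of scaling between mice, with SE bars on the deposited values and dashed lines at the fold criterion. All 6 move up together with library totals and TPM, Egf stays under and Egfr over the criterion, and Hbegf crosses 0.

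The scaling moved all members by nearly the same step. Relative to the median of all tested rows, Egf stayed between -3.01 and -2.93, Egfr between 1.45 and 1.54 and Tgfa between 0.87 and 0.91 under the deposited values and 4 other scalings. Erbb2 and Erbb3, for which the deposited values gave 0.61 and 0.58, stayed above the median by 0.56 or more. Hbegf stayed under it, by -0.22 to -0.16.

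Egf and Erbb2 had the highest mean of the ligands and of the receptors over the 6 mice, Erbb2 at 25.9 FPKM barely above Erbb3 at 25.7 FPKM, and Egf below Tgfa in OEx replicates 1 and 2. The genes most like these members were looked for among the 4510 tested genes whose mean reached 10 FPKM. For Egf these were Dcaf11, Slc7a8 and Ace, each with a Pearson r of 0.999 over 6 mice. For Erbb2 they were B4galnt1 (0.996), Znfx1 (0.995) and Prkcd (0.994). The 6 points fall into 2 groups and share libraries, and 1364 genes passed an r of 0.95 with Egf, against 185 with Erbb2, so likeness to Egf was common.

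Genes that make, release or relay the ErbB signal were described from a list of 78 in 6 roles, of which 64 were tested. Of these, 7 (10.9%) were called higher and 10 (15.6%) lower, shares near the 12.9% and 15.7% of all tested rows. Their median log2 fold change was 0.043 where that of all tested rows was -0.078. By FDR alone 26 (40.6%) were higher, 19 (29.7%) lower and 19 did not pass, beside 30.7% and 36.5% of all tested rows. The counts moved with the scaling as those of all rows did. With library totals 25 (39.1%) were higher and 2 (3.12%) lower, beside 31.6% and 4.32% of all rows. With the upper quartile 6 (9.38%) were higher and 12 (18.8%) lower, beside 10.5% and 19.5%.

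Among the other ligands, which are neuregulins for Erbb3 and Erbb4 apart from Epgn, Nrg2 fell from Ctrl levels of 3.24, 2.58 and 4.89 FPKM to OEx levels of 0.114, 0.185 and 0.360 FPKM. Its log2 fold change was -1.88 (limma FDR 2.96e-04). Nrg1 and Nrg4 were under the filter and higher in every OEx mouse. Nrg1 had 220, 241 and 327 reads in the OEx mice and 10, 14 and 34 in the Ctrl mice, and its voom log2 fold change was 3.26 (FDR 0.00108). Nrg4 had 131, 133 and 134 reads in the OEx mice and 38, 22 and 34 in the Ctrl mice, with a voom log2 fold change of 1.51 (FDR 0.00204). Nrg3 had no read, and Epgn had 2 reads in 1 Ctrl mouse.

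None of the 6 tested sheddases and iRhoms was called, and 5 passed the FDR and were higher, as did 30.7% of all tested rows. They were Adam10, a sheddase of EGF and betacellulin (0.80), Adam17, a sheddase of Tgfa and Hbegf (0.68), its cofactors Rhbdf1 (0.70) and Rhbdf2 (0.52), and Bace1 (0.48), all as log2 fold changes. With library totals, where 31.6% of all rows were called higher, all 6 were called higher, and with the upper quartile none.

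Of 16 tested adaptors and exchange factors, 3 were called higher and none lower. Eps15, an endocytic adaptor of Egfr, had a log2 fold change of 1.33, Nck2, an adaptor to the cytoskeleton, of 1.14, and Grb7, which binds Erbb2, of 1.01. Grb7 lost its call without OEx replicate 3 and without Ctrl replicate 3, where it was 0.92. By FDR alone 4 more were higher, namely the Ras exchange factor Sos1 (0.73), Crk (0.68), Gab2 (0.50) and Plcg1 (0.24). The adaptors Grb2 (-0.35), Shc1 (-0.50) and Grb10 (-0.76) and the phosphatase Ptpn11 (-0.45) were lower by FDR alone. Relative to the median of all tested rows these 4 were at -0.28, -0.42, -0.68 and -0.37, and with library totals at -0.20, -0.34, -0.94 and -0.30.

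The Ras-MAPK cascade split between family members. Hras (-1.58), the kinase gene Map2k2 (-1.46) and Mapk3 (-1.36), which encodes ERK1, were called lower, and Rasa1, a brake on Ras, was called higher (1.22), of 13 tested. Nras (0.95), another Ras gene, passed the FDR and was higher. With library totals Hras, Map2k2 and Mapk3 kept values below 0 (-0.85, -0.71 and -0.58) and were not called.

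Among 17 negative regulators, Dusp5, a phosphatase of ERK, was called lower (log2 fold change -2.88), from 15.6 ± 1.98 FPKM in Ctrl mice to 1.28 ± 0.43 FPKM in OEx mice (SD, n = 3). Spry1, a Sprouty inhibitor of Ras signaling, was called lower (-1.61), and Socs4, which promotes loss of Egfr, was called higher (1.25). By FDR alone 7 regulators were higher and 7 lower. The Sprouty genes did not move together. Spry2 was higher by FDR alone (0.98), and Spry4, under the filter, had a voom log2 fold change of -1.71 (FDR 0.0196). With library totals Spry1 was at -0.90 and was not called.

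Of 11 transcriptional targets, Ccnd1, which encodes cyclin D1, and Phlda1 were called higher, with log2 fold changes of 2.14 and 1.94. Ccnd1 had OEx levels of 53.2, 54.6 and 84.4 FPKM and Ctrl levels of 11.6, 11.7 and 18.0 FPKM. The immediate early genes Egr1 (-2.04), Fos (-1.75) and Junb (-1.62) and the ETS factor Etv4 (-1.09) were called lower. Ctrl replicate 3 was the highest mouse for all 4, with Fos at 50.9 FPKM against 10.5 and 10.97 FPKM in the other Ctrl mice. Without that mouse the log2 fold changes were -1.48 for Egr1, -1.04 for Fos and -1.29 for Junb, all still called, and -0.85 for Etv4, no longer called. Fos also lost its call without any 1 of the OEx mice, and Etv4 without OEx replicate 3. With library totals Egr1, Fos, Junb and Etv4 were at -1.32, -1.07, -0.85 and -0.63, and none of them was called. Smooth muscle markers, 6 of 6 tested called lower, were highest in Ctrl replicate 3 too, at 2672 FPKM summed against 1253 to 1278 FPKM in the other Ctrl mice, and their part in these genes was not tested.

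**Figure D4:**
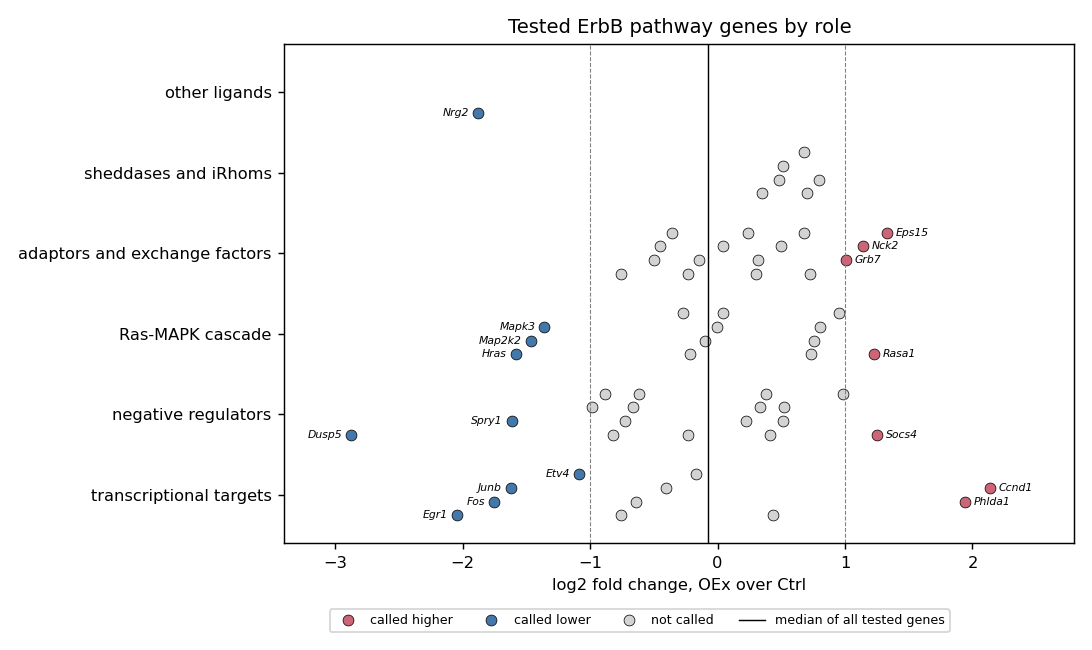
Log2 fold change (OEx over Ctrl) of the 64 tested pathway genes by role, with the vertical spread only for legibility, dashed lines at the fold criterion and a solid line at the median of all tested rows, -0.078. Called genes are named, 7 higher and 10 lower, and the sheddases and iRhoms all lie to the right of the median without a call.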

How the data were processed

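AP RNA of 3 OEx and 3 Ctrl mice was sequenced (Illumina TruSeq kit). The authors deposited 1 FPKM value per gene and mouse, and the submitters' processing notes name HISAT2 2.0.5, StringTie 1.3.3b, featureCounts 1.5.0-p3 and CASAVA. The genome build, strand setting and scaling are not given in the sources used here. With exon lengths of GENCODE M21 (GRCm38), 96.9% to 97.5% of values under 1000 reads were whole reads within 0.05, and these reads gave depth, floors and the voom fits.

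The groups entered a limma fit (version 3.58.1, R 4.3.3) of log2(FPKM + 1) with no other term and a trended eBayes step. Rows averaging 1 FPKM or more were fitted, and p-values were adjusted by Benjamini-Hochberg. In a simulation of 12469 genes, 96% of 200 genes changed by 2 on the log2 scale were called, and 2 unchanged genes. The simulated libraries were independent, with the same dispersion for every gene. They did not copy the spread between the replicates here, so these figures do not carry over to these data. Members and lists were chosen with earlier results of these data known. Named genes were all members, at most 3 called genes per role and direction, counts of 5 or fewer in full, and the 3 genes most like the leading ligand and receptor. Spry2 and Spry4 were named beside Spry1 as genes of the same family. Alternatives changed scaling, filter, pseudocount, test and samples. Proteins were not analysed here, and some genes of the lists are not reported here. Plots were made with Python 3.11.15 and matplotlib 3.10.9.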

Additional observations from a re-analysis of the deposited data

How the results depend on the processing

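Egf stayed called lower and Egfr called higher under all 17 alternatives, and Areg and Ereg were refitted only without the filter. The number of members called higher, 1, became 4 with library totals, 2 without the 20 most abundant genes in the totals, 4 with TPM, 2 without the filter, 2 with voom and 3 by FDR alone. Pathway genes called higher, 7, became 25, 14 and 30 with these 3 scalings, 12 with voom and 26 by FDR alone. Those called lower, 10, became 2 with library totals, 3 with TPM and 19 by FDR alone. Of all rows, 31.6%, 19.9% and 35.9% were called higher with these 3 scalings, 6.27% without the filter and 30.7% by FDR alone. With voom 2240 of 12463 rows were called higher. Rows called lower were 4.32% of all with library totals, 3.65% with TPM and 36.5% by FDR alone. In the same order of scalings, Tgfa was at 1.47, 1.11 and 1.56, with voom at 1.01, and passed by FDR alone at 0.83. Hbegf turned to 0.38, 0.024 and 0.48 (FDR 0.0215 with TPM). With library totals and TPM, Erbb2 was called at 1.29 and 1.40 (0.54 by FDR alone) and Erbb3 at 1.25 and 1.37. Because the scalings multiply all genes of a mouse, these shifts follow from their construction.

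Erbb4, untested at 1.17, was called without the filter (1.17), with log2(FPKM + 0.1) (3.21) and with voom (4.52), voom with replicates 1 and 2 summed (4.60), library totals (5.29), totals without the 20 top genes (4.87), upper quartile (4.37) and TPM (5.45). Erbb4 met the filter of at least 10 reads in 3 or more mice through the OEx mice. The voom and pseudocount fits with that filter, and the averaging of replicates 1 and 2, were chosen after seeing the data. With that averaging Egf was at -2.77 (FDR 0.00899) and Egfr at 1.49 (FDR 0.00433). Btc was called with voom under library totals (1.70) and TPM (1.75), where 6654 and 7281 of 15813 rows were called higher.

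Leaving out 1 mouse gave -3.45 to -2.89 for Egf, 0.73 to 0.91 for Tgfa, 0.41 to 1.60 for Btc, -0.37 to -0.066 for Hbegf, 1.36 to 1.51 for Egfr, 0.41 to 0.60 for Erbb2, 0.26 to 0.64 for Erbb3, 4.19 to 4.89 for Erbb4 with voom (4.60, 4.57, 4.40, 4.46, 4.89 and 4.19 without OEx replicates 1 to 3 and Ctrl replicates 1 to 3), and 6 to 8 higher and 8 to 11 lower pathway genes.

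The shared replicate numbers do not pair the mice, since deviations of same-numbered mice correlated at -0.19, -0.19 and -0.31. With the replicate block the FDR was 0.00634 for Egf (-3.08), 0.00209 for Egfr (1.45), 0.0102 for Tgfa (0.83) and 0.0372 for Erbb2 (0.54), no member's call changed, and 1611 rows were higher and 1986 lower.

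With 3 mice per group and reads under 20 for Areg and Ereg, differences of these 2 ligands could not be resolved.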
